A study of Mus musculus with 8 samples.

Results

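Integrins are cell-surface receptors built from an alpha and a beta subunit, and the genes described here are the mouse integrin subunits together with the cytoplasmic adaptors that join their tails to actin. The members were chosen by gene symbol: every Itga and Itgb subunit gene, and the genes of talins, kindlins, integrin-linked kinase, parvins, vinculin, paxillin and the focal adhesion kinases. Of the 40 genes named by that rule, 39 were measured among 24011 named genes, 27 of them integrin subunits and 12 of them adaptors. Ptk2, which encodes focal adhesion kinase, was not analysed here. Total RNA came from sorted bone marrow of adult C57Bl6 mice and was read on 1-colour expression arrays, 4 of Lin+ cells and 4 of HSC-enriched cells. Lin+ cells carry surface markers of mature blood lineages. HSC-enriched cells carry the label LSKCD105+CD48neg, where LSK stands for cells without lineage markers that bear Sca-1 and Kit, while the design text of the series writes CD150 in place of CD105. No genotype or treatment other than the strain is given for either group, and no sex or exact age.

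Integrins bind matrix proteins or partners on other cells outside the cell, and inside the cell talin and kindlin bind the beta tail and switch the receptor to its active form. Integrin-linked kinase and the parvins form a scaffold on the tail, vinculin strengthens the link to actin, and paxillin and the focal adhesion kinases carry signals inward. In bone marrow, alpha4 and beta1 integrins hold stem and progenitor cells in place, beta2 integrins serve the adhesion and migration of mature leucocytes, and the pair of alpha IIb and beta3 is the fibrinogen receptor of platelets. In bulk RNA of sorted cells, fewer cells of a type and less RNA per cell cannot be told apart.

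The sorted populations carried the markers of their labels. All 11 measured HSC markers were higher in HSC-enriched cells, and their mean level was 8.59 to 8.70 on the HSC-enriched arrays against 5.52 to 5.70 on the Lin+ arrays (log2). These 11 include Kit, Eng (CD105) and Slamf1 (CD150), whose proteins are named by the labels or the design text. The rise of these genes, by 3.20, 2.96 and 1.79, may follow from the sorting itself and is no separate support for the labels. All measured markers were lower for B cells (8), T and NK cells (9), monocytes (10), eosinophils, basophils and mast cells (9) and erythroid cells (7). The HSC-enriched arrays were unequal in neutrophil transcripts: 12 markers averaged 6.56, 6.47, 9.03 and 8.70 on replicates 1 to 4, against 11.40 to 11.74 on Lin+ arrays. B cell markers averaged 6.48 on HSC-enriched replicate 3 against 4.84 to 5.03 on the other 3. No label says whether the arrays of a group stand for different animals, so a p-value here covers array-to-array spread that may be technical. Precision is limited by the 4 arrays of each group.

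Across the members, HSC-enriched cells had less transcript of the beta2 and beta7 integrins of leucocytes and more of alpha6, alpha IIb and beta1. Alpha3 and alpha5 also passed as higher, alpha3 near background and alpha5 with overlapping groups. Of the 39 members, 20 passed the test (limma, Benjamini-Hochberg adjusted p under 0.05 over all 24011 genes), or 51.3%, where 27.8% of all genes passed. In HSC-enriched cells 6 were higher and 14 lower, against 15.5% higher and 12.4% lower of all genes. At a 2-fold minimum 3 were higher and 8 lower (4.80% and 6.08% of all genes), and 4 were at least 8-fold lower (1.52% of all genes). The 4 arrays of each group did not overlap for 23 members, where 28.9% of all genes did not. The median difference, HSC-enriched minus Lin+, was -0.20 over the members and 0.02 over all genes. Passing members made up 16 of 27 integrin subunits and 4 of 12 adaptors.

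Part of the family lay near background. As a guide to it, the 95th percentile of the mean levels of 1074 olfactory receptor genes, 5.06, was used. In both groups 13 members had means at or under this guide, namely Itga1, Itga7, Itga8, Itga10, Itga11, Itgad, Itgae, Itgb6, Itgb8, Fermt1, Fermt2, Parva and Tln2. Of these 13, Itga1, Itga8 and Itgad passed as lower and 10 did not pass, so 23.1% passed beside 27.8% of all genes. In addition, Itgb2l, Itgax and Itgb5 had HSC-enriched means under the guide, and Itga3 its Lin+ mean.

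**Figure D1:**
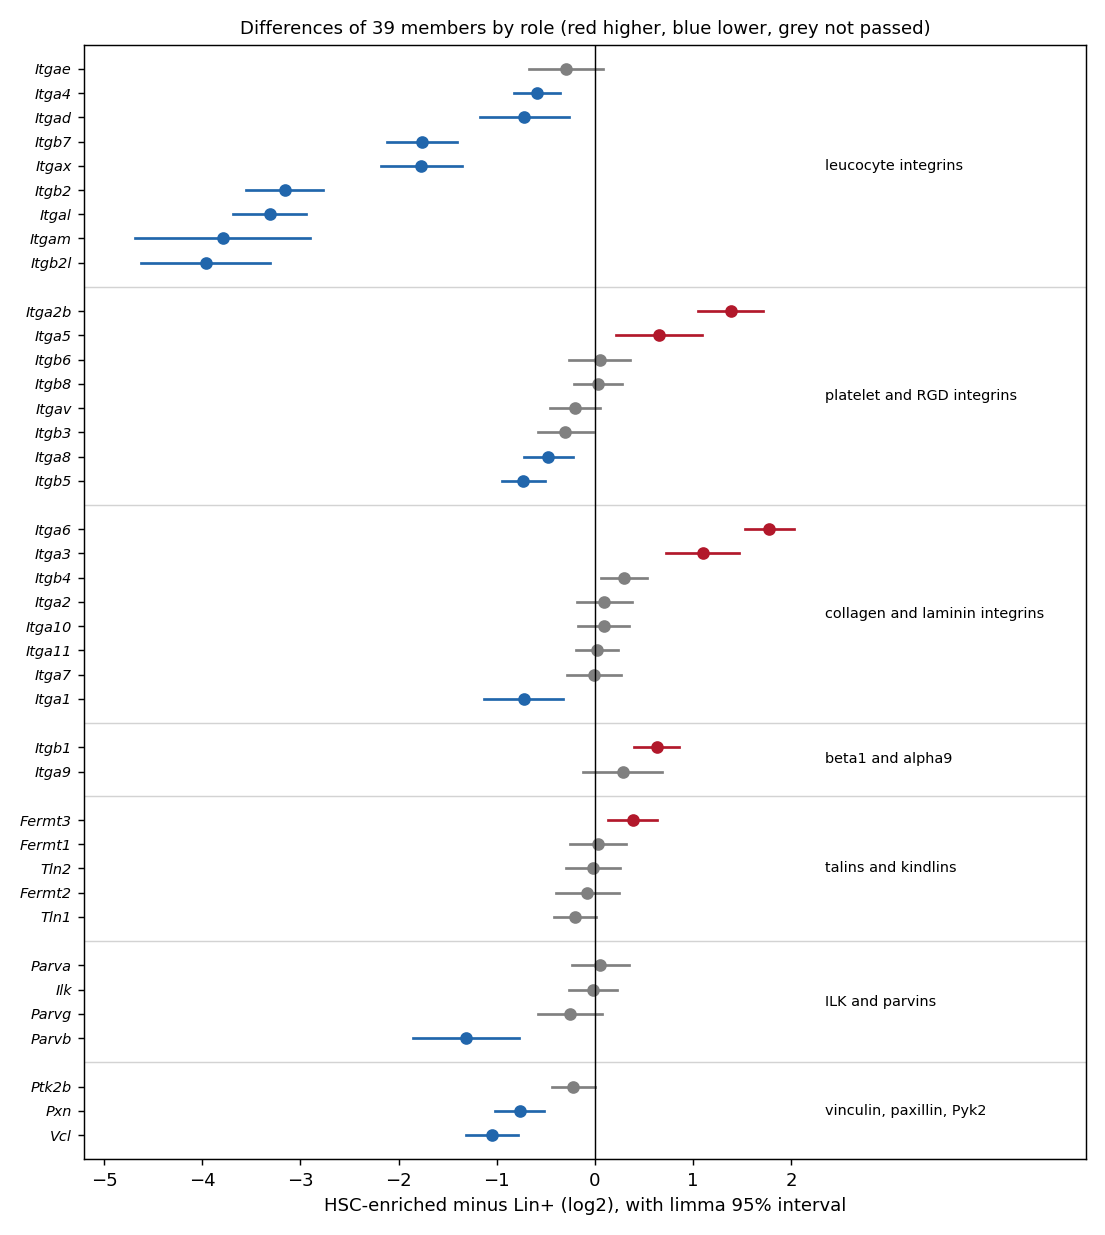
Difference of each of the 39 measured members, HSC-enriched minus Lin+ in log2 units on the x axis, with limma's 95% interval as a line and members grouped by role. Red members passed as higher (6), blue as lower (14), and grey did not pass (19); the leucocyte subunits reach from -0.30 (Itgae) to -3.97 (Itgb2l).

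The leucocyte integrins gave the largest differences of the family, and 8 of the 9 fell while Itgae did not pass (median -1.77). That is 88.9% passing, beside 27.8% of all genes. The beta2 subunit gene Itgb2 (Entrez gene 16414), whose product pairs with each of the CD11 alpha chains, lay at 7.36, 7.32, 7.58 and 8.15 on HSC-enriched replicates 1 to 4 and at 10.60, 10.79, 10.89 and 10.78 on Lin+ replicates 1 to 4 (log2). The lowest Lin+ array was far above the highest HSC-enriched array, which was replicate 4. The fall was 8.95-fold, from 10.76 ± 0.12 to 7.60 ± 0.38 (SD, n = 4; difference -3.16, SE 0.18, limma adjusted p = 8.2e-07).

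Itgal (16408), the alpha L chain of LFA-1, was at 5.87, 5.44, 6.20 and 5.95 on HSC-enriched arrays and at 8.96, 9.12, 9.44 and 9.18 on Lin+ arrays. HSC-enriched replicate 3 was the highest of its group and replicate 2 the lowest, and all 4 were far below every Lin+ array. The fall was 9.92-fold (difference -3.31, SE 0.17, limma adjusted p = 5.6e-07).

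Itgam (16409) encodes alpha M (CD11b), the alpha chain of Mac-1 on granulocytes and monocytes. It read 5.89, 5.72, 7.11 and 7.78 in the HSC-enriched samples and 10.17, 10.41, 10.66 and 10.43 in the Lin+ samples. HSC-enriched replicates 3 and 4 were higher than replicates 1 and 2, and all 4 were under every Lin+ array. The fall was 13.9-fold (difference -3.79, SE 0.40, limma adjusted p = 4.8e-05). The sample titles do not name the lineage antibodies. If CD11b was among them, the fall of Itgam may follow from the sort, which was not tested.

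Itgb2l (16415), which encodes pactolus, a beta2-like protein of mouse neutrophils, had values of 4.24, 4.86, 5.11 and 5.89 in HSC-enriched cells and 8.63, 9.17, 9.25 and 8.91 in Lin+ cells. Replicate 4 was the highest HSC-enriched array here too, and the HSC-enriched mean of 5.02 lay under the background guide. The 15.6-fold difference, the largest of the family (-3.97, SE 0.30, limma adjusted p = 4.9e-06), therefore rests on a value near background.

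Itgam was higher on the HSC-enriched arrays with the higher neutrophil marker means, replicates 3 and 4. Itgb2 and Itgb2l were also highest on these replicates, by less. So was Itgal, at 6.20 and 5.95 on replicates 3 and 4 against 5.87 and 5.44 on replicates 1 and 2. On HSC-enriched replicate 3, marker means of other mature cells were highest too: B cells 6.48, monocytes 5.70, T and NK cells 4.73. The same held for erythroid cells (5.83) and for eosinophils, basophils and mast cells (4.90). Of the other leucocyte subunits, Itga4 was lowest on replicate 4 (8.47). Itgb7 was lowest on replicate 3 (5.62) and highest on replicate 4 (6.34). Itgam and Itgb2l were the only members whose HSC-enriched arrays spanned more than 1 log2 unit, a span seen in 6.17% of all genes. Of the 12 neutrophil markers 11 fell, and only Ly6g averaged at or below the guide in HSC-enriched cells. Itgam, Itgb2 and Itgb2l were highest on replicate 4. The neutrophil marker mean was highest on replicate 3, with its markers divided. Among them Ltf, Mmp8 and Retnlg were highest on replicate 4, and Elane, Fcnb and Mpo on replicate 3. Without HSC-enriched replicates 3 and 4 the differences were -4.61 for Itgam, -4.44 for Itgb2l, -3.42 for Itgb2 and -3.52 for Itgal (limma adjusted p = 4.4e-07, 3.3e-06, 7.6e-07 and 3.3e-06), each larger in size than with them. The part of transcript from neutrophils or other mature cells in the levels of these integrin genes was not tested.

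**Figure D2:**
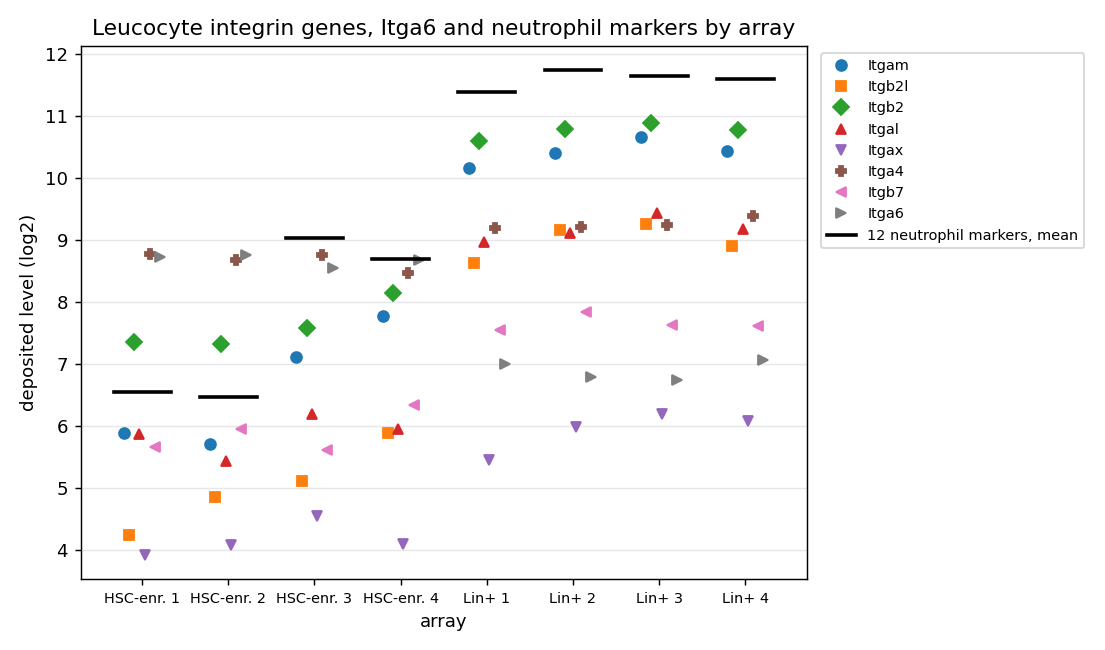
Level (log2, y axis) of 7 leucocyte integrin genes and Itga6 on each of the 8 arrays (x axis), with the mean of 12 neutrophil markers as a black bar. Itgam is at 5.89 and 5.72 on HSC-enriched replicates 1 and 2 and at 7.11 and 7.78 on replicates 3 and 4, while Itga6 stays between 8.55 and 8.76 on all 4.

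Upstream stretches of 4 members are shown because these genes moved far and in both directions: Itgam and Itgb2l fell most, Itgax lies next to Itgam, and Itga2b rose. Each is the 150 bases before a RefSeq start site (GRCm38.p6), read 5′ to 3′ on the strand of the gene, with capitals for GAGGAA on either strand, the core of a site type bound by PU.1, an Ets family factor of myeloid and B cells.
Itgam (chr7:128062490-128062639, plus strand): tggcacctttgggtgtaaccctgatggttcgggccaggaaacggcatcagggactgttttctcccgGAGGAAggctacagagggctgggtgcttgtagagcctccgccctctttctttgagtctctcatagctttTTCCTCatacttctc
Itgb2l (chr16:96443615-96443764, minus strand): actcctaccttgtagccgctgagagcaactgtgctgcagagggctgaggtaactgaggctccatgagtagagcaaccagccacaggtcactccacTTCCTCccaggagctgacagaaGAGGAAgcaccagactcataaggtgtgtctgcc
Itgax (chr7:128129400-128129549, plus strand): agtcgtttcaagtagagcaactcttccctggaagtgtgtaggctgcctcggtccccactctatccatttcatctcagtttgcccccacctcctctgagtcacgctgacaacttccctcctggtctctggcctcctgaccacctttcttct
Itga2b (chr11:102469884-102470033, minus strand): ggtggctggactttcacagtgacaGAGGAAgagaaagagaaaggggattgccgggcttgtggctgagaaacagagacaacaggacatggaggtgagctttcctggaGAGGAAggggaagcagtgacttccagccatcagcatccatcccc
Itgam, Itgb2l and Itga2b each held 2 matches in this window and Itgax held 0, while 14.5% of all 32851 start sites held a match in 150 bases. In the 250 bases before the start, 11 of 31 start sites of the 27 members with a promoter entry held the letters (35.5%), against 23.3% of all start sites. Among members that differed at least 2-fold, they were found for 2 of 6 lower and 2 of 2 higher genes with an entry, for Itga3 at only 1 of its 2 start sites. A match describes letters in a window and does not show that a factor binds there.

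Itgax (16411), the alpha X chain (CD11c) of dendritic cells and macrophages, lay at 3.92, 4.09, 4.55 and 4.10 in HSC-enriched and at 5.46, 5.99, 6.19 and 6.08 in Lin+ cells. All HSC-enriched arrays were under the background guide, so the 3.40-fold fall (difference -1.77, SE 0.18, limma adjusted p = 4.5e-05) is set against background. Itgam, Itgax and Itgad follow one another on chromosome 7 with 0 protein-coding genes between them, and their differences were -3.79, -1.77 and -0.72. Itgad, the alpha D chain, was near background in both groups, at 4.04 ± 0.11 against 4.76 ± 0.47. It fell by 0.72 (limma adjusted p = 0.023), a call lost without HSC-enriched replicate 2 (-0.71, limma adjusted p = 0.053), HSC-enriched replicate 3 (-0.68, limma adjusted p = 0.060) or Lin+ replicate 2 (-0.66, limma adjusted p = 0.065). With neither HSC-enriched replicate 3 nor 4, its difference was -0.72 (limma adjusted p = 0.099).

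The alpha4 gene and the gene of its partner beta7 fell, whereas the gene of its other partner, beta1, rose. Itga4 (16401), the alpha chain of the VCAM-1 receptor VLA-4, lay between 8.47 and 8.77 on HSC-enriched and between 9.20 and 9.39 on Lin+ arrays. It fell 1.50-fold (difference -0.59, SE 0.11, limma adjusted p = 0.0018), with no overlap between groups. Itgb7 (16421), whose product pairs with alpha4 in gut-homing lymphocytes, was at 5.66, 5.96, 5.62 and 6.34 in HSC-enriched and 7.55, 7.84, 7.62 and 7.61 in Lin+ cells. Replicate 4 was again the highest HSC-enriched array, still below each Lin+ array, and the fall was 3.39-fold (difference -1.76, SE 0.16, limma adjusted p = 1.9e-05). Itgae, the CD103 alpha chain that also pairs with beta7, was at 4.40 ± 0.23 against 4.70 ± 0.30 and did not pass (limma adjusted p = 0.26).

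Itgb1 (16412), the beta1 subunit shared by the largest number of alpha chains, was the only beta subunit gene that rose. It lay at 9.11, 9.23, 9.20 and 9.17 in HSC-enriched and at 8.44, 8.44, 8.62 and 8.71 in Lin+ samples. The HSC-enriched arrays differed from each other by no more than 0.12, and all exceeded every Lin+ array. The rise was 1.55-fold (difference 0.63, SE 0.10, limma adjusted p = 9.0e-04). Itga9, the alpha9 chain that pairs with beta1, was at 6.08 ± 0.13 against 5.80 ± 0.39 and did not pass (limma adjusted p = 0.32).

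Among subunits of laminin and collagen receptors, 2 of 8 rose, 1 fell and 5 did not pass, so 37.5% passed beside 27.8% of all genes. Itga6 (16403) encodes alpha6 (CD49f), a laminin receptor chain used as a surface marker of stem cells in several tissues, and had the largest rise of the family. Its values were 8.73, 8.76, 8.55 and 8.67 in HSC-enriched cells and 7.00, 6.78, 6.74 and 7.07 in Lin+ cells. Both groups were tight and far apart, and the rise was 3.43-fold (difference 1.78, SE 0.11, limma adjusted p = 1.7e-06).

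Itga3 (16400), the other measured laminin alpha chain that rose, was at 4.87, 5.64, 5.23 and 4.88 in HSC-enriched and 4.18, 4.01, 3.96 and 4.08 in Lin+ cells. Every Lin+ array and 2 of the 4 HSC-enriched arrays lay under the guide, so its 2.14-fold rise (difference 1.10, SE 0.17, limma adjusted p = 6.4e-04) was measured close to background. Itgb4, the beta partner of alpha6 in epithelial hemidesmosomes, was at 5.42 ± 0.15 against 5.12 ± 0.06 and did not pass (limma adjusted p = 0.062), although its groups did not overlap. Itga1, a collagen receptor chain, fell by 0.73 (limma adjusted p = 0.012) at levels of 4.24 ± 0.11 against 4.97 ± 0.40, under the guide in both groups. Its chromosomal neighbour Itga2, another collagen receptor chain, differed by 0.10 and did not pass (limma adjusted p = 0.65). Itga7, Itga10 and Itga11 differed by -0.01 to 0.09 near background and did not pass. Endothelial markers were mixed: 5 of 10 were higher and 1, Pecam1, was lower. Their means were 6.49 to 6.92 on HSC-enriched and 5.28 to 5.49 on Lin+ arrays. Cdh5, Kdr, Flt1 and Cldn5 did not pass, with Cdh5 at 5.89 against 6.25 and Kdr at 5.62 against 5.31. The part of endothelial cells in the Itga6 result was not tested.

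The platelet and RGD-binding subunits split, with 2 of 8 higher, 2 lower and 4 not passing, so 50.0% passed beside 27.8% of all genes. Itga2b (16399), the alpha IIb chain (CD41) of megakaryocytes, platelets and some stem cells, was at 7.43, 7.73, 7.36 and 7.49 in HSC-enriched and at 6.44, 6.04, 5.81 and 6.18 in Lin+ cells. The groups did not overlap, and the rise was 2.61-fold (difference 1.38, SE 0.15, limma adjusted p = 5.2e-05). Itgb3 (16416), the beta3 partner of alpha IIb and of alpha V, read 6.76, 6.66, 6.29 and 6.70 in HSC-enriched and 7.03, 6.95, 6.86 and 6.77 in Lin+ cells. The arrays of the groups touched without overlapping, and the difference of -0.30 did not pass (95% interval -0.58 to -0.02, limma adjusted p = 0.11). Besides Itga2b, 5 of 10 markers of megakaryocytes and platelets were higher and 0 lower, and their mean was 6.18 to 6.52 on HSC-enriched and 5.29 to 5.87 on Lin+ arrays. Their part in the Itga2b result was not tested.

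Itga5 (16402), the alpha5 chain of the fibronectin receptor, rose 1.57-fold, from 6.46 ± 0.35 to 7.12 ± 0.29 (limma adjusted p = 0.030). It was the only passing member whose groups overlapped. Its call was lost without HSC-enriched replicate 1, 3 or 4 or without Lin+ replicate 1, 2 or 4 (differences 0.50 to 0.68, limma adjusted p = 0.052 to 0.081). Leaving out HSC-enriched replicates 3 and 4 together ended it as well (0.47, limma adjusted p = 0.20). Itgb5, a beta partner of alpha V, fell from 5.43 ± 0.10 to 4.70 ± 0.09 (limma adjusted p = 2.9e-04), with the HSC-enriched mean under the guide. Itga8 fell by 0.47 under the guide in both groups (limma adjusted p = 0.0089), a call lost without HSC-enriched replicates 3 and 4 together (-0.40, limma adjusted p = 0.051). Itgav, the alpha V chain, was at 7.09 ± 0.15 against 7.29 ± 0.13 and did not pass (limma adjusted p = 0.24), and Itgb6 and Itgb8 differed by 0.05 and 0.03 near background.

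**Figure D3:**
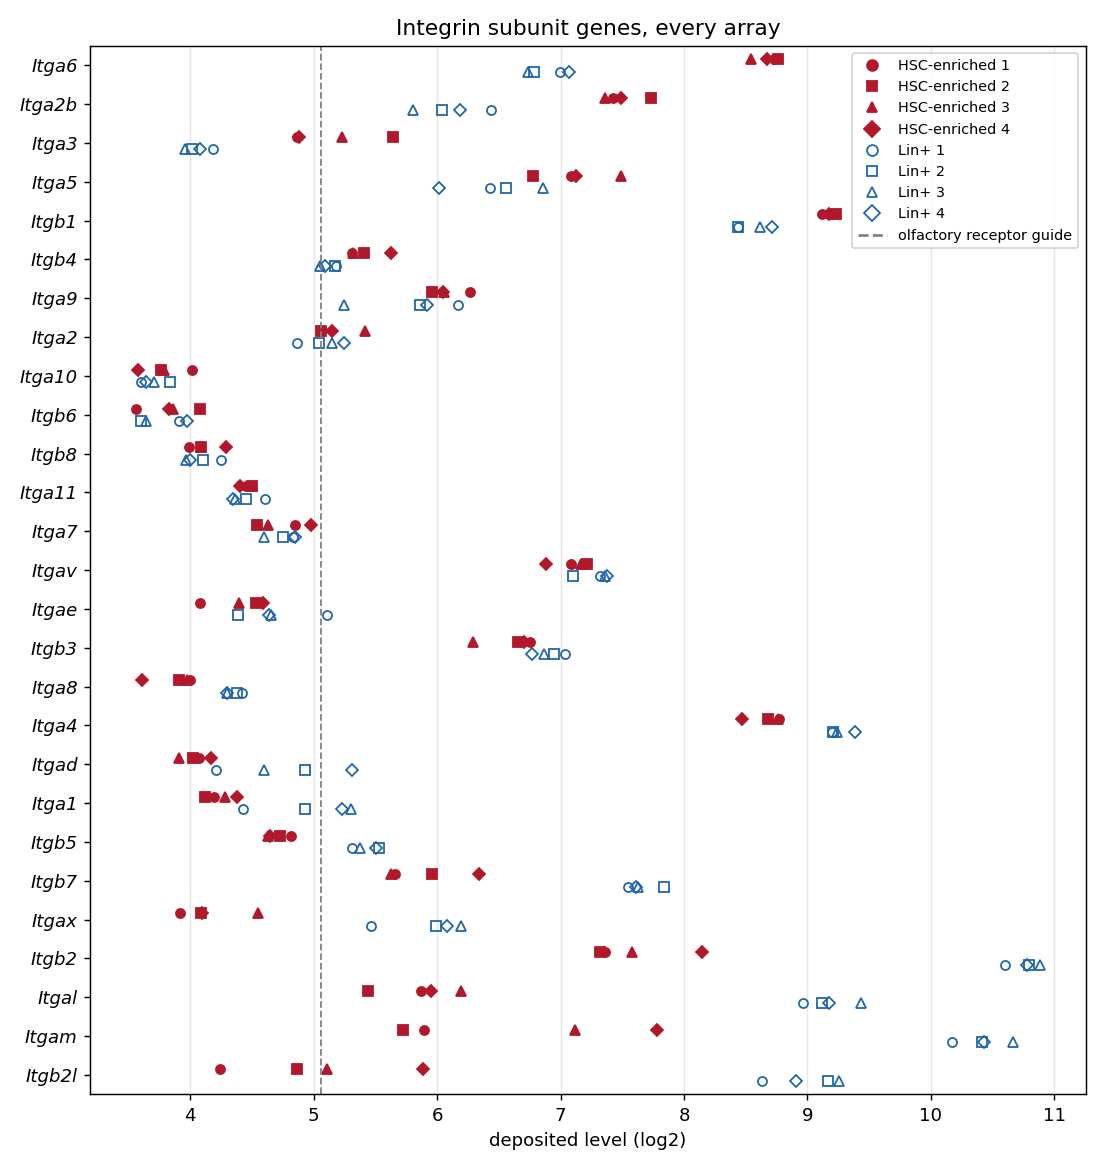
Level (log2, x axis) of the 27 integrin subunit genes on every array, ordered by difference, with filled red symbols for HSC-enriched and open blue symbols for Lin+ replicates 1 to 4. The dashed line is the background guide at 5.06; Itga6 stands at the top with no overlap between groups, and Itgb2, Itgal, Itgam and Itgb2l stand at the bottom with every HSC-enriched array below every Lin+ array.

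Of the 5 talin and kindlin genes 1 passed, as higher (20%, beside 27.8% of all genes). In both groups 3 of them had means at or under the guide. Tln1 (21894), talin-1, was at 9.07, 9.06, 9.15 and 9.07 in HSC-enriched and 9.25, 9.20, 9.46 and 9.26 in Lin+ cells. The HSC-enriched arrays were all slightly lower, yet the difference of -0.20 did not pass (95% interval -0.42 to 0.01, limma adjusted p = 0.17). Tln2 (70549) lay near background at 4.71, 4.49, 4.86 and 4.70 against 4.94, 4.57, 4.77 and 4.56, with overlapping groups (difference -0.02, limma adjusted p = 0.94).

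Fermt3 (108101), kindlin-3, the kindlin of blood cells, was at 8.65, 8.60, 8.44 and 8.79 in HSC-enriched and 8.08, 8.25, 8.40 and 8.20 in Lin+ cells. It was the only adaptor gene that rose, by 1.31-fold (difference 0.39, SE 0.11, limma adjusted p = 0.026). The call did not hold without HSC-enriched replicate 1, 2 or 4 or without Lin+ replicate 1, 2 or 4 (differences 0.33 to 0.39, limma adjusted p = 0.055 to 0.069), nor without HSC-enriched replicates 3 and 4 together (0.39, limma adjusted p = 0.075). Fermt2 (218952), kindlin-2 of most other tissues, was at 5.08, 5.12, 4.60 and 5.03 against 5.19, 5.14, 4.81 and 4.99 and did not pass. Fermt1, the epithelial kindlin-1, was far under the guide, at 3.08 ± 0.18 against 3.04 ± 0.17.

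In the scaffold of integrin-linked kinase and parvins, 1 of 4 genes fell and 3 did not pass, a share (25.0%) close to the 27.8% of all genes that passed. Ilk (16202) was at 8.31 ± 0.10 against 8.34 ± 0.15, with a difference of -0.02 (95% interval -0.26 to 0.22, limma adjusted p = 0.93). Parvb (170736), beta-parvin, was at 5.93, 5.37, 5.30 and 6.25 in HSC-enriched and 6.49, 7.17, 7.12 and 7.33 in Lin+ cells. Both groups were wide, without overlap, and the fall was 2.49-fold (difference -1.31, SE 0.24, limma adjusted p = 0.0021).

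Parvg (64099), gamma-parvin of blood cells and the direct chromosomal neighbour of Parvb, was at 8.75, 8.76, 8.77 and 8.21 in HSC-enriched and 8.70, 8.90, 9.05 and 8.85 in Lin+ cells. Replicate 4 stood below the other HSC-enriched arrays, and the difference of -0.25 did not pass (95% interval -0.58 to 0.08, limma adjusted p = 0.27). Parva (57342), alpha-parvin, was near background at 4.68, 4.45, 4.58 and 4.62 against 4.83, 4.53, 4.24 and 4.50 and did not pass (limma adjusted p = 0.83).

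Of the genes of the actin link and of inward signalling, vinculin and paxillin fell and Pyk2 did not pass. Vcl (22330), vinculin, was at 8.45, 8.37, 8.19 and 8.33 in HSC-enriched and 9.20, 9.26, 9.63 and 9.44 in Lin+ cells. The groups were well apart, and the fall was 2.07-fold (difference -1.05, SE 0.12, limma adjusted p = 9.0e-05). Pxn (19303), paxillin, fell from 9.10 ± 0.18 to 8.34 ± 0.03 (difference -0.76, SE 0.11, limma adjusted p = 4.4e-04). Ptk2b (19229), the focal adhesion kinase relative Pyk2, was at 8.32, 8.47, 8.41 and 8.50 against 8.64, 8.55, 8.76 and 8.62. Its groups did not overlap, but the difference of -0.22 did not pass (95% interval -0.43 to -0.00164, limma adjusted p = 0.14). Without HSC-enriched replicates 3 and 4, Vcl, Pxn and Parvb fell by 0.97, 0.76 and 1.38.

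**Figure D4:**
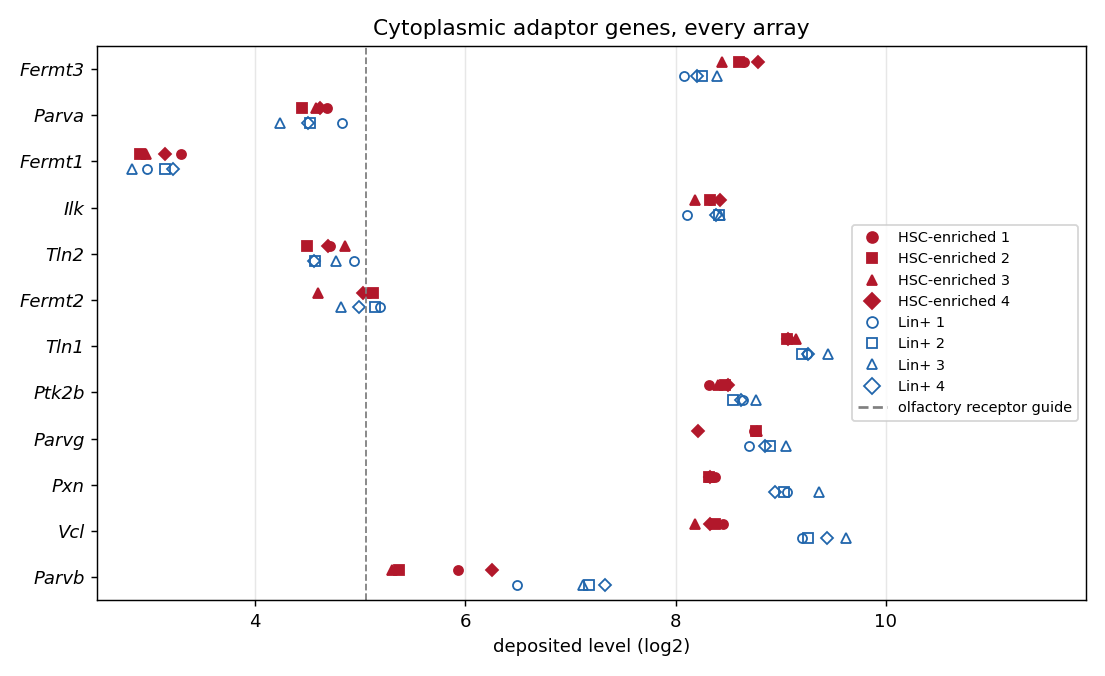
Level (log2, x axis) of the 12 measured adaptor genes on every array, ordered by difference, with filled red symbols for HSC-enriched and open blue symbols for Lin+ replicates 1 to 4 and the background guide as a dashed line. Pxn, Vcl and Parvb, at the bottom, have every HSC-enriched array below every Lin+ array, and Fermt3, at the top, the reverse.

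Related members were compared within arrays to ask whether they changed unequally. For each of 9 pairs, the log2 difference of the genes was taken on every array and compared between groups by a two-sided exact permutation test over the 8 arrays, whose smallest possible p is 0.0286. Levels of different probe sets are not comparable, so only the shift of this difference is read. It was apart without overlap for 4 pairs, each at the smallest exact permutation p of 0.0286. Adjusted over the 9 pairs this became 0.0644, so 0 of 9 passed the adjustment. For beta1 against beta2, beta1 against beta7 and alpha IIb against beta3, the lack of overlap was set by the single genes. The groups of each gene in these pairs already lay apart, in opposite directions, so the test adds no support for unequal change there.

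The shift was widest for beta1 against beta2, at 3.79 (SE 0.20), with Itgb1 over Itgb2 higher on 4 of 4 HSC-enriched arrays than on any Lin+ array. For the partners of alpha4, beta1 against beta7, it was 2.39 (SE 0.20). For alpha IIb against beta3 it was 1.69 (SE 0.15), and for alpha6 against alpha3 0.68 (SE 0.19). The last value is uncertain in size, since every Lin+ array of Itga3 lay under the background guide.

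The other 5 pairs overlapped between groups, and 3 of them, those with Tln2, Fermt2 and Parva, include a gene under the guide in both groups. Parvb against Parvg shifted by -1.06 (SE 0.38, exact permutation p = 0.0571, adjusted 0.103) and Fermt2 against Fermt3 by -0.46 (SE 0.17, exact permutation p = 0.0857, adjusted 0.129). Tln2 against Tln1 shifted by 0.18 (SE 0.11, exact permutation p = 0.114, adjusted 0.147) and Parva against Parvg by 0.31 (SE 0.25, exact permutation p = 0.286, adjusted 0.314). Itgal against Itgam shifted by 0.48 (SE 0.40, exact permutation p = 0.314, adjusted 0.314), and by 1.09 without HSC-enriched replicates 3 and 4. These values do not show that the members of those pairs changed alike.

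Other genes of integrin signalling were taken from 6 lists by role. Genes of inside-out activation, the signals that switch integrins on or off from within, were lower where they passed: 9 of 17 fell and 0 rose (52.9% passed, beside 27.8% of all genes; median -0.43). Fyb, the adaptor ADAP that links Rap1 signals to integrins, fell 2.84-fold (limma adjusted p = 1.3e-05). Flna, filamin A, which competes with talin for beta tails, fell 2.83-fold (limma adjusted p = 2.6e-06). Rasgrp2, which activates Rap1 in platelets and leucocytes, fell by 0.98, Rap1a by 0.48 and Apbb1ip, the Rap1 effector RIAM, by 0.59. The inhibitor gene Sipa1 fell by 0.79. Itgb1bp1, another inhibitor gene, fell by 0.43 close to the threshold (limma adjusted p = 0.043), and its groups overlapped. Rap1b (-0.09) and Skap2 (-0.23) did not pass (limma adjusted p = 0.71 and 0.26).

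Of 25 outside-in signalling genes 4 rose and 7 fell (44.0% passed, beside 27.8% of all genes; median -0.02). The rises were about as frequent as over all genes, of which 15.5% rose. The Src family kinase gene Fgr fell 9.68-fold and the kinase gene Syk 3.41-fold, both acting behind leucocyte integrins (limma adjusted p = 4.6e-06 and 3.2e-06). Fgr is itself a gene of granulocytes and monocytes, the cells whose markers fell in the same comparison. The part of these cells in the fall of Fgr was not tested. Yes1, another Src family kinase gene, rose 2.97-fold from a Lin+ mean of 4.13 under the guide, and Dock1, an activator of Rac, rose 2.71-fold (limma adjusted p = 2.3e-05 and 2.8e-04). Cdc42 (-0.20) and Lcp2 (0.05) did not pass (limma adjusted p = 0.18 and 0.82). Without HSC-enriched replicates 3 and 4 the lower genes of this list numbered 4, and with quantile normalization the higher ones numbered 7.

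Of 22 genes of focal adhesion structure, 5 rose and 6 fell (50.0% passed, beside 27.8% of all genes, with a median of 0.03). The tensin genes Tns2 and Tns1, whose products bind beta tails and actin, rose 3.98-fold and 2.66-fold (limma adjusted p = 2.8e-05 and 1.5e-05). Actn1, the actin crosslinker alpha-actinin-1, fell 4.81-fold and Lpxn, the paxillin relative leupaxin, 3.15-fold (limma adjusted p = 6.1e-07 and 3.6e-05), Lpxn to an HSC-enriched mean under the guide. The zyxin gene Zyx (-0.22) and the Ras suppressor gene Rsu1 (0.24), which belongs to the integrin-linked kinase scaffold, did not pass (limma adjusted p = 0.34 and 0.14).

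Membrane partners of integrins divided evenly, with 3 of 8 higher and 3 lower (75.0% passed, beside 27.8% of all genes, with a median of -0.01). Cd81, a tetraspanin gene, rose by 0.97 and Slc3a2, the CD98 heavy chain that binds beta1 tails, rose 1.99-fold (limma adjusted p = 8.0e-05 and 0.0040). Plaur, the urokinase receptor, fell by 1.32 and the tetraspanin gene Cd82 by 1.31 (limma adjusted p = 4.2e-04 and 1.3e-04). Cd47 (-0.06) and Bsg (0.03) did not pass (limma adjusted p = 0.78 and 0.87).

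Ligand genes varied widely. Of 11 cell-surface ligands 5 rose and 3 fell (72.7% passed, beside 27.8% of all genes, with a median of 0.08). F11r, which encodes JAM-A, a ligand of LFA-1, rose 14.5-fold (limma adjusted p = 5.2e-07), and Jam3, a ligand of Mac-1, rose 3.76-fold (limma adjusted p = 2.4e-06). Vcam1, the ligand of alpha4 beta1, fell 5.20-fold and Cdh1, E-cadherin, which binds alpha E beta7, fell 2.88-fold (limma adjusted p = 7.4e-04 and 3.2e-05), Cdh1 to an HSC-enriched mean under the guide. Vcam1 is also a macrophage gene and is itself among the 10 measured genes of the monocyte and macrophage marker list, all of which fell. The part of these cells in the fall of Vcam1 was not tested. Icam4 (-0.37) and Madcam1 (0.08) did not pass (limma adjusted p = 0.19 and 0.61).

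Of 19 matrix and plasma ligands 5 rose and 2 fell (36.8% passed, beside 27.8% of all genes; median 0.10). The falls were no more frequent than over all genes, of which 12.4% fell. Vwf, von Willebrand factor, rose 4.26-fold and the basement membrane collagen gene Col4a1 1.82-fold (limma adjusted p = 7.1e-06 and 9.3e-04). Vwf is also a gene of megakaryocytes and endothelial cells. Apart from Itga2b, 5 of 10 megakaryocyte and platelet markers were higher and 0 lower. Of 10 endothelial markers, 5 were higher and 1 lower. The part of megakaryocytes and endothelial cells in the rise of Vwf was not tested. Fn1, fibronectin, fell 16.1-fold to an HSC-enriched mean of 5.28, and Thbs1, thrombospondin-1, fell 6.23-fold (limma adjusted p = 2.0e-06 and 3.9e-05). Fn1 is itself among the genes of the monocyte and macrophage marker list, as Vcam1 is. The part of these cells in the fall of Fn1 was not tested. Tgfb1 (-0.24) and Lamc1 (-0.09) did not pass (limma adjusted p = 0.24 and 0.66). Markers of stromal cells, which lay down matrix, were at 4.15 to 4.28 on HSC-enriched and 4.22 to 4.29 on Lin+ arrays, 1 of 11 higher and 2 lower, and 8 of 11 had HSC-enriched means under the guide. The higher genes of this list numbered 3 without HSC-enriched replicate 4 or Lin+ replicate 2, 3 or 4.

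**Figure D5:**
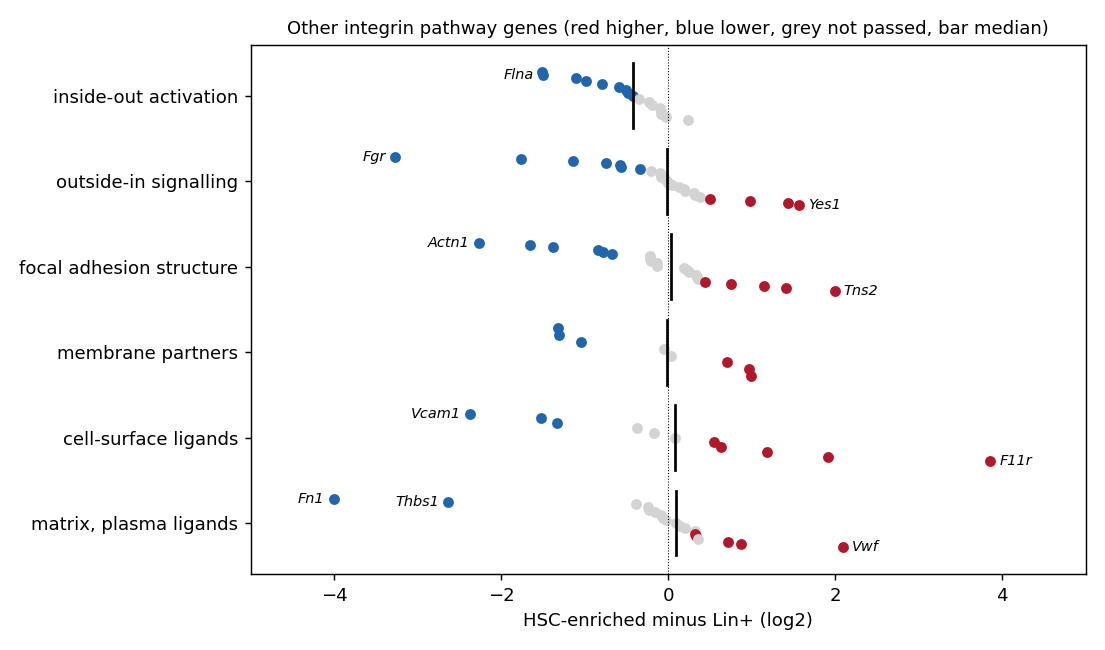
Difference (HSC-enriched minus Lin+, log2, x axis) of each measured gene in 6 lists of the integrin pathway, with red for passing as higher, blue for lower, grey for not passing and a black bar at the list's median. In inside-out activation 9 genes are blue and 0 red, whereas every other list has both colours.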

How the data were processed

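The deposited table holds log2 expression of 24973 probe sets on 8 arrays, made by the authors with RMA and Partek, per the submitters' processing notes, which give no versions. The labels' protocols name MouseGene 1.0st and 2.0st arrays without saying which sample went on which. For the genome build and the probe set definition, the sources used here give nothing. RMA makes arrays comparable in distribution, so a global change in RNA cannot be seen. Entrez gene IDs gave 1 symbol for 24015 probe sets and none for 958. The brightest probe set of a symbol was kept, leaving 24011 genes.

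HSC-enriched minus Lin+ was fitted to all genes with limma 3.58.1 (R 4.3.3; 2 groups, no covariates, no filter on low values), with Benjamini-Hochberg adjustment over all genes at 0.05. The members, lists, pairs and alternatives were chosen with earlier results of these data known, and no list was tested as a set. The rule for named genes took every member, with each array's value for those at least 2-fold apart or in a pair. In each pathway list it took up to 2 of the largest rises, 2 of the largest falls and 2 not passing with the highest level. Rasgrp2, Rap1a, Apbb1ip, Sipa1 and Itgb1bp1 were named after their values were seen. Samples with the same replicate number in both groups did not deviate together (correlations -0.152 to 0.0587), so numbers were not treated as pairs. The fit was tested on simulated data. Promoter stretches are RefSeq's (GRCm38.p6). Plots come from matplotlib 3.10.9 under Python 3.11.15.

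Alternatives were centring, quantile normalization, a filter at the 40th percentile on 4 arrays, the mean of probe sets, array weights, eBayes with a trend and robust estimation, the replicate number as a block, and leaving arrays out.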

Additional observations from a re-analysis of the deposited data

Results flagged for a closer look

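In groups of 4 arrays, a sample stood apart when its gap to the nearest other, divided by the range, exceeded Dixon's 95% critical value. Of 78 groups of members tested, 3 did so, where chance gives about 3.9. Ilk was at 8.11 on Lin+ replicate 1 against 8.39 to 8.43 on the other 3 Lin+ arrays. Tln1 was at 9.15 on HSC-enriched replicate 3 against 9.06 to 9.07 on the others. Parvg was at 8.21 on HSC-enriched replicate 4 against 8.75 to 8.77 on the others.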

How the results depend on the processing

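Of the 20 members that passed, 16 kept their direction and call under every one of the 16 alternatives in which they could be tested. Itga5, Fermt3, Itgad and Itga8 lost theirs in some, as given with each. None of the 19 others gained a call, and 10 of these changed sign in at least 1 alternative. Leaving out single arrays gave 4 to 6 higher and 13 to 14 lower members. Leaving out HSC-enriched replicates 3 and 4 together gave 4 and 12. The filter kept 28 of 39 members and removed 11 dim ones, so 11 lower members were left by construction. With the replicate block, 5 members were higher and 14 lower. Fermt3 lost its call in that fit (0.39, limma adjusted p = 0.078), and the block changed no other member's call. Replicate numbers matched best across groups for 2 of 4 numbers. The matrix and plasma ligands had 3 higher genes with the block and 3 to 5 when single arrays were left out. The outside-in list had 7 higher genes with quantile normalization and 4 lower ones without HSC-enriched replicates 3 and 4. With 4 arrays a group the exact test of the pairs could hardly pass the adjustment, so its outcome under alternatives says nothing about stability. Centring moved the median of all genes to 0.01 and quantile normalization to 0.04. Signal near background limits 13 members in both groups and Itgb2l, Itgax, Itgb5 and Itga3 in 1 group, whose differences may understate a change.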
